A study of Mus musculus with 6 samples.

Results

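The regions described here are intergenic intervals of trimethylated lysine 4 of histone H3 (H3K4me3) in mouse primordial germ cell-like cells, an in vitro model of the earliest embryonic germ cells. They were taken from the deposited H3K4me3 interval list as those on chromosomes 1 to 19, under 3000 bp wide, whose centre lay outside every GENCODE M21 gene of any type and over 5 kb from every GENCODE transcript start. Of 29072 intervals in the list, 27954 were on chromosomes 1 to 19, 27179 of these were under 3000 bp, 7236 of these lay outside genes, and 4481 met the whole rule. A further 23 intervals met the rest of the rule but were 3000 bp or wider.

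Chromatin immunoprecipitation followed by sequencing was done on untreated day 2 cells of strain 129Sv/J, whose Tex10 protein carries an HA tag at its C-terminus. There were 2 samples with an antibody against H3K4me3 (ab8580), 2 with an antibody against the HA tag (ab9110) and 2 of input DNA. Each antibody has 1 interval list, without peak heights or p-values, and the input samples were not analysed here. No value of a single replicate could therefore be given and no difference was tested, the depth is unknown, and the 95% intervals (Wilson) cover the counting of intervals only and treat neighbouring intervals as independent. The labels do not say whether the tagged line is 1 clone or a mixture.

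H3K4me3 is deposited by methyltransferases that are drawn to active and CpG-rich promoters, so most of it lies where transcription starts. Away from annotated genes it can mark unannotated promoters, strong enhancers, genes of RNA polymerase III such as tRNA genes, and the promoters of transposable elements. Among the last are the LINE-1 (L1) retrotransposons of the mouse, which copy themselves through RNA. A full-length mouse L1 begins with short promoter units, the monomers, repeated in tandem, followed by an open reading frame for an RNA-binding protein and a long one for an endonuclease and reverse transcriptase. The active mouse subfamilies A, Tf and Gf are told apart by their monomers. Tex10 is a nuclear protein known from a ribosome-maturation complex and from enhancers of pluripotent cells.

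The intergenic intervals were largely repeated DNA. Intervals were called mostly repeated when more than 50% of the 32-base words read from them had another copy in the GRCm38 genome. This held for 2631 of 4481 intergenic intervals, or 58.7% (57.3 to 60.1), against 18.4% of all 27179 H3K4me3 intervals under 3000 bp on these chromosomes. When intervals that share at least 20 such words were joined into families, 3 families held 2194 intervals, which is 49.0% of the intergenic intervals and 83.2% of the mostly repeated ones. The families were defined after the data had been seen, and no repeat annotation was used, so they are called by their size. The commonest 30-base word of each family is shown because it shows what most of its members share, as letters of the reference genome with the core recognised by the factor YY1, AAGATGG on either strand, in capitals where present. The words occurred in 74.5% of 1210 intervals of the first family, 87.0% of 808 of the second and 96.7% of 91 of the third.
The first family: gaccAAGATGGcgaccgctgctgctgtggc
The second family: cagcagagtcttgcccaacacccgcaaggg
The third family: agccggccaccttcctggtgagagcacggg

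The first family had 1257 intervals on 19 chromosomes, with a median GC content of 62.6% and a median of 1852 copies of their words in the genome. The second had 845 intervals on 19 chromosomes, with a GC content of 62.1% and 2252 copies. The third had 92 intervals on 17 chromosomes, with a GC content of 66.5% and 811 copies. Words found in at least 20% of a family's intervals numbered 306, 289 and 265, and since families were made by joining intervals that share words, separate families are bound to share few or none. The median interval width was nearly the same in the families, at 574, 570 and 570 bp.

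On average each family matched itself best at an offset of its own. The sequence around each interval was compared with itself at every offset from 20 to 700 bp. In the first family the mean match was highest at an offset of 212 bp, where 50.9% of bases matched, against a median of 25.7% over all offsets. In the second it was highest at 208 bp, with a match of 56.3% against 25.8%, and in the third at 206 bp, with 58.6% against 26.4%. Further peaks stood at the multiples of these lengths. Single intervals with a match over 70% at some offset were 334 of 1257, 270 of 845 and 39 of 92, and the commonest offset was again 212 bp (248 intervals), 208 bp (220) and 206 bp (22). Most intervals did not reach that match.

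**Figure D1:**
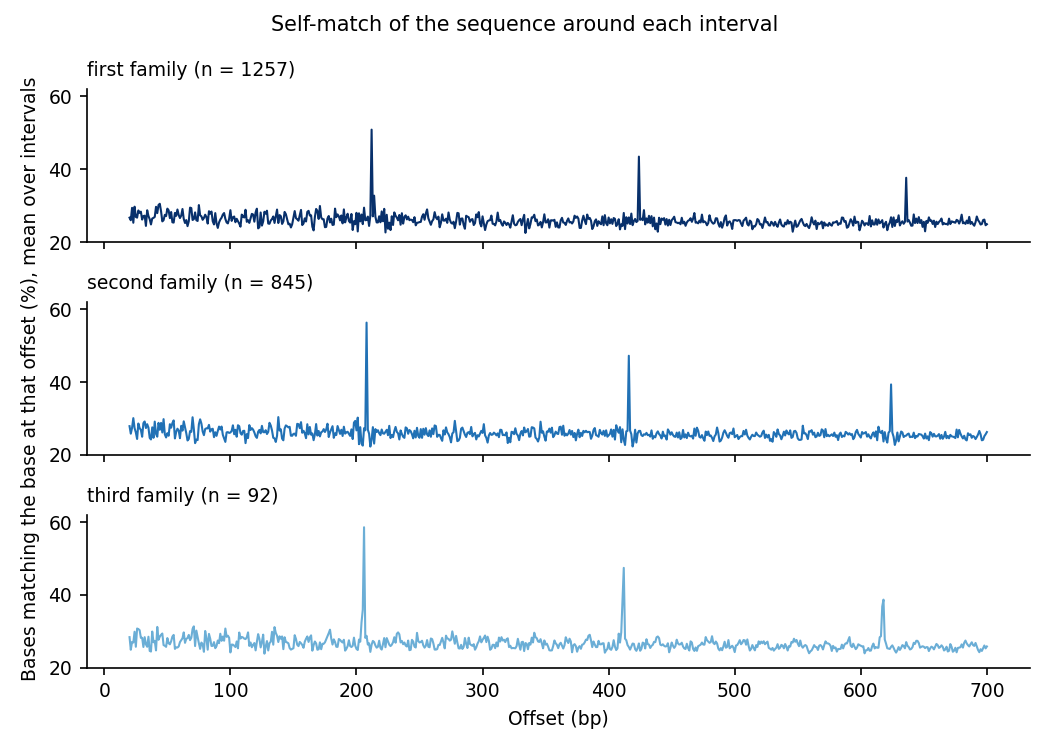
Share of bases that match the base a given number of bp away (y axis, %, mean over the intervals of a family) against that offset (x axis, bp), for the 3 largest families of intergenic H3K4me3 intervals. The highest peaks stand at 212, 208 and 206 bp, and smaller ones follow at the multiples of these offsets.

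The families also shared a long open reading frame that the choice of intervals did not use. A frame of at least 1000 codons without a stop was looked for within 9 kb on either side, reading away from the interval. It was found beside 1547 of 2194 intervals of the 3 families, or 70.5% (68.6 to 72.4). Among other mostly repeated intervals it was found beside 22 of 441, or 4.99%, and among the remaining intervals beside 9 of 1846, or 0.488%. Outside the 3 families it was not evenly spread. A smaller family of 25 intervals on 12 chromosomes had it beside 11, at a median of 1711 bp from the centre. A family of 16 intervals on chromosome 8 had it at 5, where it began at a median of only 2 bp from the centre. Frames of exactly 1300 codons stood beside 794 intervals of the first family, 366 of the second and 75 of the third. In these 3 families the frame began at a median of 1642, 1669 and 1869 bp from the interval's centre. Tandem units of high GC content followed by a long frame are the layout of full-length mouse L1 elements described above, and which elements are transcribed cannot be read from these lists.

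The families differed in the short motifs of their central 200 bp. The YY1 core was in 1002 of 1257 intervals of the first family (79.7%) and 81 of 92 of the third (88.0%), but in 0 of 845 of the second, against 9.35% of all 27179 H3K4me3 intervals. The CCAAT box (CCAAT), bound by the factor NF-Y, was in 93.0% of the second family, 0.875% of the first and 0 of 92 of the third, against 19.6% of all. The GC box (GGGCGG), bound by Sp factors, was in 52.1% of the first, 0.237% of the second and 91.3% of the third, against 29.3%. The ETS core (CCGGAA) was in 62.5% of the first and 0.118% of the second family, against 12.8%. The motifs were searched on both strands as exact letters, and members of a family hold copies of the same sequence, so these shares describe the family and are not separate observations.

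H3K4me3 was also counted over all tracts of each family's shared words on chromosomes 1 to 19, in genes or not. The first family had 1727 tracts, of which 86.7% (85.1 to 88.3) met an H3K4me3 interval. The second had 1670, with 68.8% (66.5 to 71.0), and the third 385, with 39.2% (34.5 to 44.2). The shared words were taken from the intergenic intervals themselves, so copies that differ from these are counted less often and the shares are not those of all copies in the genome. Reads from such words can be placed at several copies, and how the authors treated them is not given in the sources used here. A tract that met an interval is therefore not shown to carry the mark itself. This limit holds for all tract shares below, by length, by frame and for HA-Tex10. In genes and outside them the shares were close, at 89.4% and 85.4% in the first family, 70.9% and 68.0% in the second, and 41.2% and 38.2% in the third. Outside genes, however, most tracts with H3K4me3 met the intergenic intervals chosen for that mark. These were 923 of 991 tracts in the first family, 746 of 806 in the second and 87 of 95 in the third. The shares outside genes thus largely count the chosen intervals again.

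Longer tracts met H3K4me3 more often in each family. Of tracts of 300 bp or less, 48.7% of the first family, 11.8% of the second and 0 of 61 of the third met an H3K4me3 interval, the last allowing up to 5.92%, the upper Wilson bound. Of tracts over 1000 bp, 99.0%, 93.7% and 95.2% did. Tracts with a long frame beside them met H3K4me3 in 87.5% against 83.0% without one in the first family, 76.4% against 56.6% in the second and 50.4% against 13.04% in the third. Tracts with a frame were also longer, with medians of 633 against 622 bp, 603 against 535.5 bp and 585.5 against 413 bp. The frame was not compared at equal tract length. A longer tract is a larger target for an overlap and carries more copies of the unit, and these cannot be told apart here.

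HA-Tex10 followed the same order of tract length. It met 0.877% of the tracts of 300 bp or less of the first family and 31.4% (26.3 to 36.9) of those over 1000 bp. In the second family the shares were 0.909% and 21.1% (16.7 to 26.4), and in the third 0 of 61 and 45.2% (31.2 to 60.1). Among tracts that met H3K4me3, HA-Tex10 was present at 16.7% in the first family, 12.01% in the second and 31.1% in the third.

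**Figure D2:**
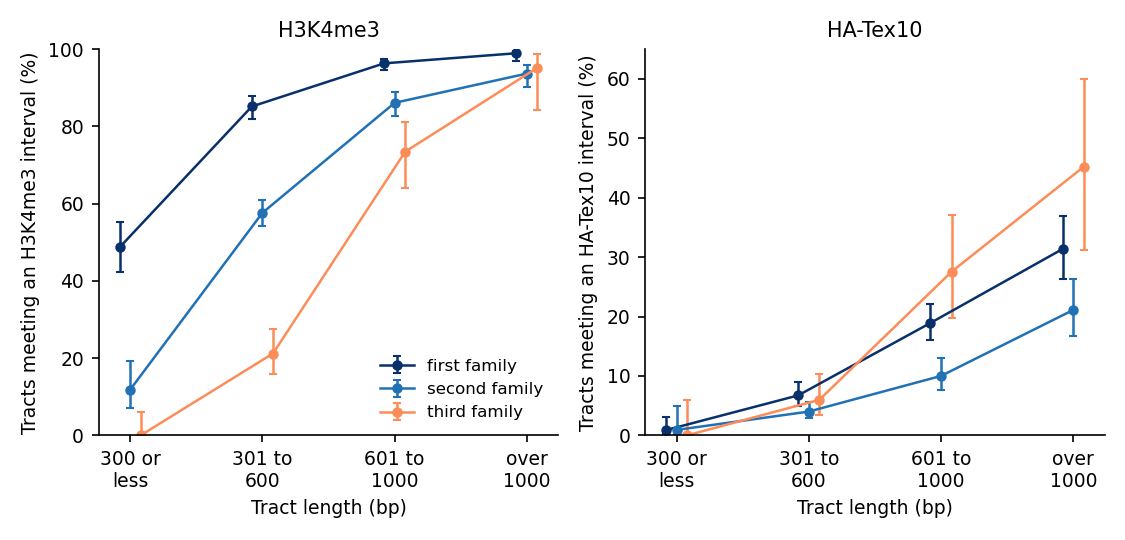
Share of tracts meeting an H3K4me3 interval (left, y axis, %) or an HA-Tex10 interval (right, y axis, %) by tract length (x axis, bp) for the 3 families, with Wilson 95% intervals as bars. H3K4me3 meets between 93.7% and 99.0% of the longest tracts, depending on the family, and HA-Tex10 between 21.1% and 45.2% of them. Reads from these tracts can be placed at several copies.

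The make-up of the intergenic intervals changed with distance from genes. At 5 to 10 kb from a transcript start, 334 of 954 intervals were mostly repeated, or 35.0%. The share was 43.5% of 1178 at 10 to 20 kb, 63.8% of 1267 at 20 to 50 kb, 86.2% of 659 at 50 to 100 kb and 96.7% of 423 beyond 100 kb. The 3 families alone made up 24.6% of the nearest class and 92.9% of the farthest. Beyond 100 kb only 14 intervals were not mostly repeated. The 5 intervals farthest from any GENCODE start all carried words with over 1000 copies. The farthest, at chr1:114557397-114558706, lay 594 kb from the nearest start.

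**Figure D3:**
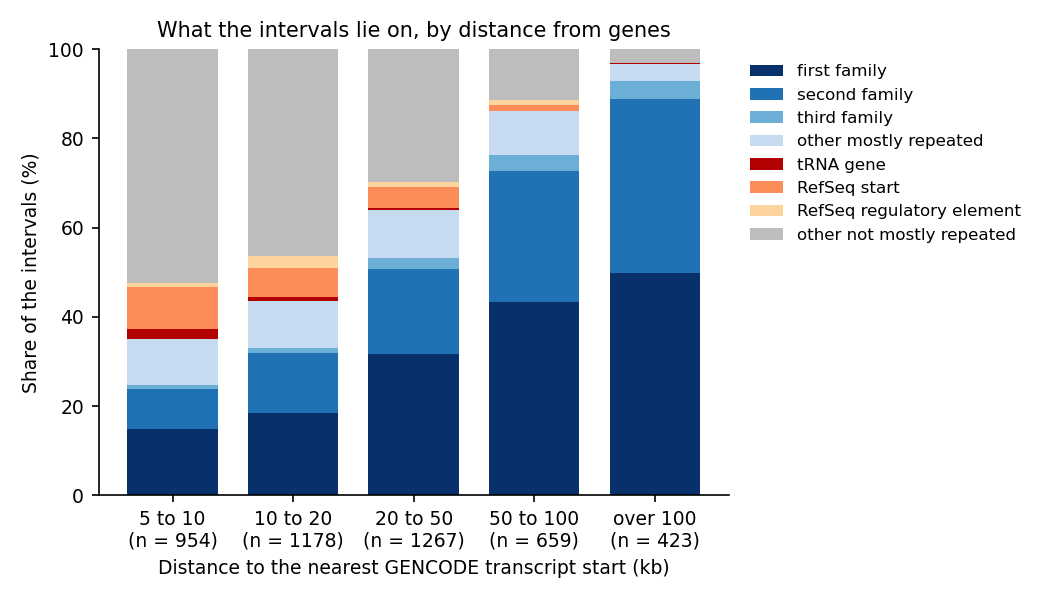
Share of the intergenic H3K4me3 intervals in each class (y axis, %) by distance to the nearest GENCODE transcript start (x axis, kb, with the number of intervals). The 3 families (darker blues) make up 24.6% of the intervals at 5 to 10 kb and 92.9% of those beyond 100 kb.

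HA-Tex10 met 513 of 4481 intergenic intervals, or 11.4% (10.5 to 12.4), against 8.98% of all H3K4me3 intervals under 3000 bp. The mostly repeated intervals accounted for most of these. HA-Tex10 met 419 of 2631 mostly repeated intervals, or 15.9% (14.6 to 17.4), and 94 of 1850 others, or 5.08% (4.17 to 6.18). In introns of protein-coding genes, over 5 kb from any start, HA-Tex10 met 16.3% (14.1 to 18.7) of 953 mostly repeated intervals and 3.04% (2.24 to 4.12) of 1315 others. For the intervals not mostly repeated the nearest bounds were 4.17 and 4.12, and no difference between the places was tested. At promoters, within 1 kb of a protein-coding transcript start, HA-Tex10 met 9.82% of 13859 intervals. Reads from repeated sequence can be placed at several copies, and how the authors treated such reads is not given in the sources used here. Their part in the overlap was not tested.

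By class, HA-Tex10 met 192 of 1257 intervals of the first family, or 15.3% (13.4 to 17.4). It met 84 of 845 of the second, or 9.94% (8.10 to 12.1), and 26 of 92 of the third, or 28.3% (20.1 to 38.2). Together the 3 families held 58.9% of the intergenic intervals with HA-Tex10. The 441 mostly repeated intervals outside these families had the factor at 117, or 26.5% (22.6 to 30.8). This share was uneven. In the arrays on chromosomes 6 and 8 described below, HA-Tex10 met 16 of 37, 17 of 19 and 13 of 16 intervals of a family. In the fourth largest family, on 18 chromosomes, it met 0 of 69. The class with the lowest share held intervals that were not mostly repeated and had no tRNA gene, no RefSeq start and no RefSeq regulatory element. HA-Tex10 met 67 of these 1512, or 4.43% (3.50 to 5.59).

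**Figure D4:**
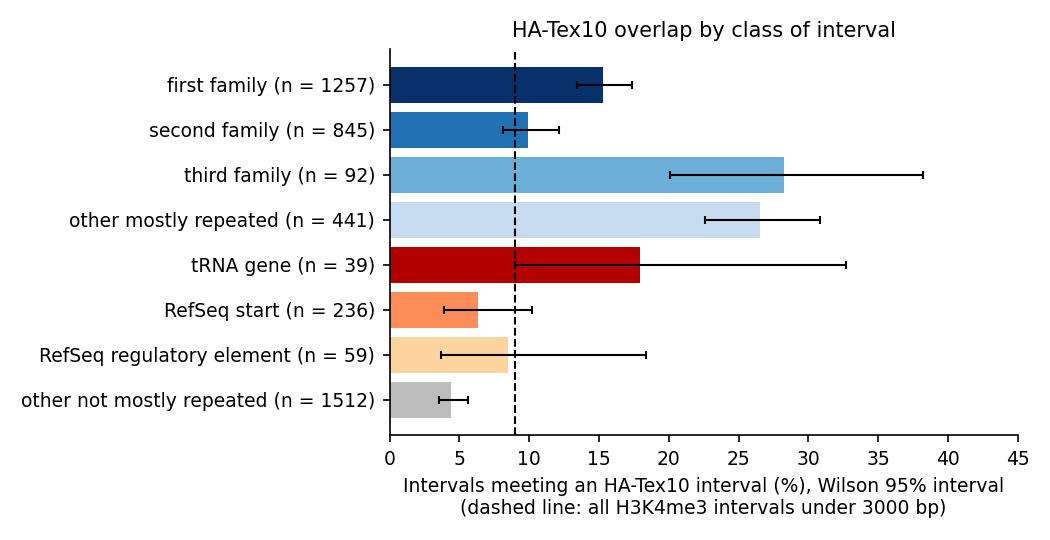
Share of intergenic H3K4me3 intervals that meet an HA-Tex10 interval (x axis, %) by class of interval (y axis, with the number of intervals), with Wilson 95% intervals as bars and the share among all H3K4me3 intervals under 3000 bp, 8.98%, as a dashed line. The first and the third family and the other mostly repeated intervals lie above the line with their whole 95% interval, and the other not mostly repeated intervals lie below it.

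Width moved with the overlap. The median width was 490 bp over all intergenic intervals and 693 bp over all H3K4me3 intervals under 3000 bp. Of the intergenic intervals, 52 were under 50 bp. Intergenic intervals with HA-Tex10 had a median width of 777 bp and those without it 464 bp. HA-Tex10 met 4.98% of the intervals of 2 to 318 bp, 6.16% of those of 319 to 490 bp, 11.8% of those of 491 to 778 bp and 22.9% (20.5 to 25.4) of those of 779 to 2976 bp, which are 4 groups of nearly equal number. The same order held in both kinds of sequence. From the narrowest to the widest group the share went from 8.11% to 30.01% among mostly repeated intervals and from 2.31% to 10.3% among the others. Where they met, an HA-Tex10 interval had a median width of 251 bp, covered a median of 32.3% of the intergenic interval, and had its centre in the inner 50% of it in 372 of 552 pairs, or 67.4%.

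Some of the densest HA-Tex10 lay in tandem gene and repeat arrays. On chromosome 6 at chr6:47651523-47773242, 19 intervals of 1 family lay in the array of genes for the 4.5S RNA (Rn4.5s), a short rodent RNA of RNA polymerase III related to the B1 repeat. HA-Tex10 met 17 of the 19. These intervals had a median width of 1216 bp, a GC content of 65.4%, an observed-to-expected CpG ratio of 0.74 and 15 copies of their words. RefSeq annotates 1 copy of the gene, 174 bp long at chr6:47654921-47655094 on the minus strand, and the array held 11 full copies of its words and 7 partial ones. The median spacing was 4337 bp between full copies and 4260 bp between intervals. Of the 19 intervals, 11 began within 500 bp of the right end of a full copy, which is the start of the RNA on the minus strand. HA-Tex10 covered 67.0% of the bp of these intervals. The reference has a run of 50 kb of unknown bases inside the array, so its true number of copies is not in these data.

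The annotated 4.5S RNA gene is shown 5′ to 3′ on its own strand with CpG dinucleotides in capitals, followed by the central 200 bp (chr6:47749110-47749309, plus strand) of the intergenic interval that shared the most bp with HA-Tex10, 1325 of 1420 bp. They are shown to set the transcribed unit beside the CpG-rich flank that carried both signals.
Rn4.5s gene: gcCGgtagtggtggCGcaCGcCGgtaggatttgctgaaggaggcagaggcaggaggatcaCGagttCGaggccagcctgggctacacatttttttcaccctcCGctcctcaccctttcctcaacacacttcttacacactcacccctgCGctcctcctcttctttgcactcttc
Flanking interval: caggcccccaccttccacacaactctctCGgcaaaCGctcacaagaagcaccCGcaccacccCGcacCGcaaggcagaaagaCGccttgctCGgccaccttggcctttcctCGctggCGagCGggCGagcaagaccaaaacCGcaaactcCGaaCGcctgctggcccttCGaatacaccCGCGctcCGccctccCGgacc

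**Figure D5:**
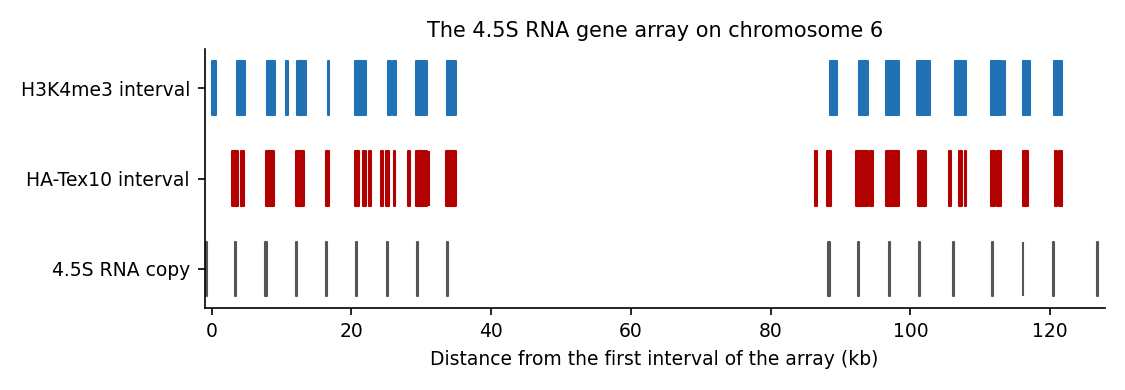
Positions of H3K4me3 intervals, HA-Tex10 intervals and copies of the 4.5S RNA gene (full or partial) in the array, as distance from its first intergenic H3K4me3 interval (x axis, kb). H3K4me3 and HA-Tex10 intervals recur with the gene copies, and the empty stretch holds the 50 kb of unknown bases of the reference.

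Other arrays stood out by density. The 1 Mb windows with most intergenic intervals were at 114 Mb of chromosome 6 (41 intervals), 21 Mb of chromosome 13 (31), 47 Mb of chromosome 6 (22, the 4.5S array), 20 Mb of chromosome 8 (22) and 38 Mb of chromosome 18 (16). On chromosome 6 at chr6:114492966-114629610, between the autophagy gene Atg7 and the histamine receptor gene Hrh1, 37 of the 41 intervals were 1 family with a spacing of 2449 bp, and HA-Tex10 met 16 of these 37. On chromosome 8 at chr8:20069590-20705932, 16 of 22 intervals were 1 family whose mean self-match was highest at 156 bp, the best offset of 4 of its 12 intervals with a match over 70%, and HA-Tex10 met 13 of the 16. On chromosome 13 only 1 of the 31 intervals was mostly repeated, 16 overlapped a tRNA gene and 2 met HA-Tex10. The 16 intervals on chromosome 18, near the protocadherin gene Pcdh1, had HA-Tex10 at 0, and 1 of them was mostly repeated. Not every repeat family had the factor. The fourth largest, 69 intervals on 18 chromosomes with a median of 3 copies, had it at 0 of 69.

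A GENCODE-free interval was not always free of a gene in the RefSeq annotation. A RefSeq transcript or tRNA gene started within 1 kb of 332 intergenic intervals, or 7.41% (6.68 to 8.21), against 55.5% of all H3K4me3 intervals under 3000 bp. Among those not mostly repeated the share was 14.9%. The nearest RefSeq start was of a long non-coding RNA for 173, a tRNA for 91, an mRNA for 60 and another RNA for the remaining 8. HA-Tex10 met 9.25% of those at a long non-coding RNA, 14.3% of those at a tRNA and 6 of the 60 at an mRNA.

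CpG content was lower than at promoters. Intervals with at least 50% GC and an observed-to-expected CpG ratio of at least 0.6 were called CpG-rich. They were 940 of the intergenic intervals, or 20.98% (19.8 to 22.2), against 42% of all intervals under 3000 bp, 62.5% at promoters and 13.4% in introns. In the third family 96.7% of intervals were CpG-rich, in the second 42.0% and in the first 13.05%. Of the 1850 intervals not mostly repeated, 13.5% were CpG-rich.

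tRNA genes lay in 39 intergenic intervals. These 39 held 46 of the 386 tRNA genes in the annotation used, for 18 isotypes, with 6 genes for alanine and 5 for methionine. Of the 39, 21 were on chromosome 13 between 21 and 24 Mb, beside the histone gene cluster. They were broad and not GC-rich, with a median width of 1167 bp, a median GC content of 46.7% and an observed-to-expected CpG ratio of 0.65, and none of the 39 was mostly repeated. HA-Tex10 met 7 of the 39, or 17.9% (8.98 to 32.7). The widest, at chr13:21917315-21919852 (2538 bp), held a serine tRNA gene and met HA-Tex10 over 337 bp. Next came chr13:21167297-21169528 (2232 bp, with a methionine and a lysine tRNA gene), chr13:21274894-21276943 (2050 bp, threonine), chr19:12009521-12011525 (2005 bp, lysine and leucine) and chr13:21258328-21260329 (2002 bp, alanine), none with HA-Tex10. The serine tRNA gene (RefSeq GRCm38.p6, chr13:21919215-21919296, plus strand) is shown with the B box, an internal promoter element bound by TFIIIC, in capitals, as the annotated feature inside the widest of these intervals.
tRNA-Ser gene: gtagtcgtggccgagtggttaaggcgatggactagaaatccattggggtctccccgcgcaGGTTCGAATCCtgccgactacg

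Of the intervals that were not mostly repeated, the 5 widest lay near a mixed set of genes. The widest, of 2976 bp, lay 13.1 kb from Zfp532, a zinc-finger gene, and met HA-Tex10 over 227 bp. The others did not meet it. One of 2963 bp at chr15:81521978-81524940 had the ubiquitin-ligase gene Rbx1 as its nearest protein-coding gene, 56.8 kb away. One of 2899 bp at chr7:24278801-24281699 lay 8.68 kb from the zinc-finger gene Zfp93. One of 2881 bp at chr11:77904415-77907295 lay 11.8 kb from Pipox, a peroxisomal oxidase gene, and on an enhancer tested in transgenic mouse embryos (VISTA mm981). One of 2849 bp at chr2:154426457-154429305 lay 8.60 kb from Cbfa2t2, whose product is a co-repressor needed for germ cell specification. It overlapped the start of a RefSeq long non-coding RNA, Gm52564, an enhancer region named for Cbfa2t2 and VISTA mm1461. The central 200 bp of the chromosome 15 interval (chr15:81523359-81523558, plus strand) is shown with CpG in capitals, as an interval with no repeated 32-base word in the part read and no annotated start within 5 kb, although 20.6% of its bases are masked as repeats in the reference.
Chromosome 15 interval: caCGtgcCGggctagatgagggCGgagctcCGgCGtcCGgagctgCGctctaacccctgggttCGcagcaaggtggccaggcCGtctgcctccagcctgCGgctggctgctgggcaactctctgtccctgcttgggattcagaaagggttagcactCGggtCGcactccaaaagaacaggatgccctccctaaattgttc

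The 5 intervals that shared most bp with HA-Tex10 among those not mostly repeated were on chromosomes 15, 13 and 8. At chr15:75086130-75086968, 825 of 839 bp were shared, 25.1 kb from the cell-surface gene Ly6c2. On chromosome 13, chr13:23400958-23402865 shared 732 bp and chr13:23411273-23413084 shared 570 bp, and both held a valine tRNA gene near Abt1. At chr8:19979880-19981145 the overlap was 636 bp. At chr13:3372950-3373494 the interval was covered whole, 545 of 545 bp. Of the words read, 21.9% were repeated in this last interval, 39.4% in the chromosome 15 one and 33.5% in the chromosome 8 one. In those with a valine tRNA gene they were 0% and 1.12%.

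RefSeq regulatory elements, such as enhancers tested in reporter assays, overlapped 66 of the intergenic intervals, or 1.47% (1.16 to 1.87), and 65 of these were among the 1850 not mostly repeated, or 3.51% (2.77 to 4.45). With mostly repeated intervals counted too, as in the 1.47%, all intervals under 3000 bp had 0.758%, introns 1.50% and promoters 0.390%. HA-Tex10 met 5 of the 66. The control region of Sox2, the pluripotency factor, held 3 intervals of 555, 1482 and 463 bp, 106024 to 109516 bp from the Sox2 start, none with HA-Tex10. Enhancer clusters targeted by CRISPR interference were marked near Sall1 (6 intervals, 14 to 1712 bp, 1 with HA-Tex10), Ranbp17 (6, up to 2434 bp), Med13l (4), Cbfa2t2 (3), the Mir290 microRNA cluster (3) and Mcl1 (1). Sall1 codes for a zinc-finger factor of pluripotent cells and Mcl1 for a survival protein. The HA-Tex10 interval at the Sall1 cluster shared 282 bp with chr8:89003485-89004280.

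Sall1 was also the protein-coding gene with most of these intervals as neighbours. It was the nearest one, within 100 kb, for 10 intervals that were not mostly repeated, at 19.8 to 94.1 kb, and HA-Tex10 met 3 of them. Btn2a2, Irf2bpl and Trim27 followed with 8 each. Mcl1, Pard6b, Sertad2, Smad7 and Trmt9b had 7 each. Counts per gene are of listed intervals, and close neighbours were not merged. Of all intergenic intervals, 2324 were upstream of the nearest protein-coding gene and 2157 downstream, so 51.9% (50.4 to 53.3) lay upstream. Among those not mostly repeated 51.2% (48.9 to 53.5) did. The rule leaves out 5 kb around transcript starts but not around gene ends, so an even split is no reference here.

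Genes of 7 lists were looked up as nearest protein-coding neighbours within 100 kb of an interval not mostly repeated. Over all 20780 protein-coding genes on these chromosomes 1032 had such an interval, or 4.97%. Of the pluripotency genes 4 of 19 had one, of formative and epiblast genes 7 of 17, of germ cell specification genes 4 of 19, of mesoderm and somatic genes 4 of 20 and of Wnt pathway genes 7 of 20. Of Tex10 and its partners 1 of 14 had one, and of later germline genes 0 of 18. Genes differ in the length of intergenic DNA around them, and its part in these counts was not tested. The lists were chosen with earlier results of these data known.

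The nearest interval to a pluripotency gene lay 8.12 kb from Nanog, a homeobox factor, at chr6:122715601-122715774, and the next 8.54 kb away at chr6:122715924-122716290. Among formative and epiblast genes, one of 1949 bp lay 5.23 kb from Sox4, a SOX factor, and 120 bp from a RefSeq start of a long non-coding RNA, Gm46405, and one of 396 bp 6.44 kb from Dnmt3b, a DNA methyltransferase. Among germ cell genes, one of 482 bp lay 13.8 kb from the nearest protein-coding transcript start of Nanos3, an RNA-binding protein that keeps germ cells alive. Another GENCODE start of Nanos3 was 5126 bp from the same interval. One of 664 bp lay 14.5 kb from Tfap2a, a factor of the AP-2 family. Prdm14, a regulator of germ cell fate, had 4 intervals at 21.7 to 31.3 kb. Among mesoderm and somatic genes, one of 437 bp lay 7.32 kb from Msx2 and one of 489 bp lay 7.67 kb from Cdx2, both homeobox genes. Among Wnt genes, Axin1, a scaffold of the complex that degrades beta-catenin, had 3 intervals at 6.43 to 7.13 kb from its GENCODE starts. The 2 nearest of these were only 197 and 12 bp wide and lay 936 and 699 bp from a RefSeq start of Axin1 itself. Near the Tex10 gene 1 interval of 92 bp lay 17.9 kb away. HA-Tex10 met none of the intervals given here by distance, and in these lists it met 1 interval each at Nanos3, Msx2 and Zfp42, the gene of the pluripotency marker Rex1. Lefty2, a Nodal antagonist of the epiblast, had one of 2784 bp at chr1:180882828-180885611, 8.89 kb away, at the start of a RefSeq long non-coding RNA and without HA-Tex10.

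Motifs of the 1850 intervals that were not mostly repeated were set beside those of 1315 such intervals in introns. The GC box was in 16.3% against 13.2%, the CCAAT box in 20.9% against 19.3%, the SOX core (ACAAAG) in 16.4% against 18.1% and the AP-1 site (TGACTCA) in 74 of 1850 against 49 of 1315 intervals. The TATA box (TATAAA) was in 5.14% against 7.53%. The exact B box of tRNA genes was in 1.51% against 0.760%. In the 94 intervals with HA-Tex10 it was in 5 (5.32%), and in the 1756 without in 23 (1.31%). It was 1 of 15 motifs, and others also differed, in both directions. The E-box (CACGTG) was in 8.51% with HA-Tex10 against 3.30% without. The CRE core (TGACGT) was in 5.32% against 2.16%, and the AP-1 site in 7.45% against 3.82%. The CCAAT box was in 13.8% against 21.2%, and the SOX core in 11.7% against 16.6%. These letters are a subset of the sites each factor binds, and matches are a description only.

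Values were also taken just inside and outside the 5 kb limit. The 175 intergenic intervals at 5 to 6 kb from a start were mostly repeated in 30.3%, and the 206 intervals outside genes at 4 to 5 kb, which the rule left out, in 27.7%. HA-Tex10 met 14 of the former and 20 of the latter (9.71%). The nearest interval inside the limit lay 5002 bp from a start and the nearest left out 5000 bp. The widest intergenic interval was 2976 bp and the narrowest above the width limit 3010 bp.

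Chromosomes 1 to 19 had between 1.44 and 2.29 intergenic intervals per Mb, lowest on chromosome 9 and highest on chromosome 6. HA-Tex10 met 4.93% of them on chromosome 15 and 21.3% on chromosome 6. Among the intervals not mostly repeated it met 8 of 100 on chromosome 6. Neighbouring intervals lay a median of 233 kb apart, and 25.2% had another within 5 kb.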

How the data were processed

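Data were ChIP-seq of 2 H3K4me3, 2 HA-Tex10 and 2 input samples. The deposited lists give only chromosome, start and end of each interval (score and strand columns without values), per the file contents. The submitters' processing notes name Bowtie2 2.3.4.3, SAMtools 1.9, MACS2 2.1.2, HOMER and build mm10 (GRCm38), without their role or order. Peak thresholds, use of input and pooling of replicates are not given in the sources used here. The third list, whose 2990 distinct intervals are the HA-Tex10 intervals that meet H3K4me3, was not used as a measurement.

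Overlap meant 1 bp shared. Distances to a protein-coding gene ran from the interval's centre to the nearest start of a protein-coding transcript. Genes came from GENCODE M21, and tRNA genes, further transcripts and regulatory elements from RefSeq GRCm38.p6, which also gave the sequences. Words of 32 bases were counted on both strands over the central 300 bp. CpG values of intervals under 200 bp were read over 200 bp. Tracts were runs of at least 100 of a family's common words with gaps of up to 500 bp. The 30-base words were counted without chromosome 18. The counting of words, overlaps and distances was tested on simulated data. The joining into families, the self-match, the reading frames and the tracts were not. Python 3.11.15, numpy 2.4.6, pandas 2.3.3, scipy 1.17.1 and numba 0.67.0 were used.

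Regions named were the 5 widest not mostly repeated, the 5 and 3 with most HA-Tex10 bp among not mostly and mostly repeated ones, the 5 farthest from starts, the widest at tRNA genes and RefSeq starts, the 2 nearest to a gene of each list and the 5 densest windows. Families, tracts, reading frames, the regulatory elements, the genes with most intervals and Lefty2 and Prdm14 were chosen after values had been seen. The intergenic intervals, the lists and the motifs were chosen with earlier results of these data known.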

Additional observations from a re-analysis of the deposited data

Results flagged for a closer look

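Signal appeared outside the chromosomes analysed. On the X chromosome 354 H3K4me3 intervals met the rest of the rule, 2.07 per Mb, and 40 of these met HA-Tex10. On the Y chromosome 33 did, 2 of them with HA-Tex10. No control sample gave a file, so these counts had no control background to be set against. The limit of 3 counts that a count of 0 allows does not come from a control here.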

How the results depend on the processing

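No paired analysis was possible because the 2 samples of an antibody share 1 list, so no replicate could be left out either. For 4 shares, 38 alternatives were computed, 8 of them chosen after seeing the data. Of these, 16 stayed inside the 95% interval of the reported share and 22 moved out of it.

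The share with HA-Tex10 (11.4%) was 17.3% among intervals wider than the median, 5.08% without mostly repeated intervals and 13.6% with HA-Tex10 within 1 kb. It was 9.23% without the 3 families and 10.5% without 1 Mb windows of 20 or more intervals. The mostly repeated share (58.7%) was 65.1% over 10 kb from starts, 64.8% in wider intervals, 61.3% without intervals under 200 bp and 62.8% with neighbours within 1 kb merged. It was 49.7% when over 90% of words had to be repeated, 55.9% with 50-base words and 19.3% without the 3 families. The CpG-rich share (20.98%) was 22.6% in wider intervals, 13.5% without mostly repeated ones, 31.2% over the central 200 bp and 14.5% without the 3 families. The share at a RefSeq start (7.41%) was 5.73% over 10 kb from starts, 6.53% after merging, 14.9% without mostly repeated intervals and 14.1% without the 3 families. It was 2.81% when the start had to lie in the interval and 9.75% within 2.5 kb. Unknown depth limits what a missing overlap can show.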
